A study of Mus musculus with 15 samples.

Results

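Bone marrow macrophages lacking the transcription factor JUNB were compared with wild type macrophages 4 h after 100 ng/ml lipopolysaccharide (LPS), a bacterial cell wall component that activates Toll-like receptor 4. The comparison used the 7 LPS-treated arrays of the 15 in the series, chosen by their labels: 3 knockout arrays (replicates 2, 3 and 4) and 4 wild type arrays (replicates 1 to 4). The 8 untreated arrays, 4 of each genotype, gave the same genotype contrast without LPS. Knockout cells carried Junb-fl/fl and Lyz2-Cre+/+, so Cre recombinase, inserted in the myeloid lysozyme gene Lyz2, deleted the floxed Junb in macrophages. Wild type cells were labelled C57BL/6, which is also the stated background of the knockout, so floxed alleles, Cre and loss of both intact Lyz2 copies separated the groups along with Junb. Marrow had been grown in MCSF for a week and plated in wells, and replicates were independent wells. Nothing in the labels ties wells to separate mice, so p-values measure the spread between wells. Each array was a single-colour hybridization of amplified RNA. Each genotype had a slide of its own, so genotype and slide cannot be told apart in what follows.

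JUNB is a subunit of AP-1, the family of JUN, FOS, ATF and BATF proteins that bind DNA as dimers and switch on or repress genes after growth factor, cytokine or microbial signals. In macrophages LPS induces several AP-1 subunits within hours, alongside NF-kB and interferon regulatory factors. JUNB is known both as a partner in cytokine gene induction and as a factor in the alternative activation programme that interleukin 4 drives. Which transcripts differ after LPS when JUNB is absent is the question this comparison addresses.

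The values are relative signals, that is each array's processed intensity divided by that array's 75th percentile, so a value of 1 equals the 75th percentile. Levels are not compared between genes, since each probe has its own brightness. Dim values were raised to a common floor of 0.0436. A gene was called when its adjusted p was under 0.05 in limma's moderated test with Benjamini-Hochberg adjustment over all 14198 genes tested; counts cover the 13695 autosomal ones. Arrays of one LPS group correlated at 0.977 to 0.997 and arrays of the 2 LPS groups at 0.953 to 0.982, and 52.7% to 58.5% of probes were well above background on the LPS arrays. Genes of chromosomes X and Y were left out because Xist was at the floor on all 3 knockout arrays and between 1.41 and 1.93 on the wild type arrays. Ddx3y, a Y-linked gene, ran from 8.67 to 10.2 on knockout arrays and lay at the floor on wild type arrays, so the sex of the cells also differs with genotype. In autosomal genes too, sex and genotype cannot be told apart. Of 18 macrophage markers tested, the summed relative signal was 2982 to 3677 in knockout and 2700 to 3866 in wild type arrays, which overlap; Cx3cr1 and Aif1 were called higher and Fcgr1, Lyz1, Spi1 and Cebpa lower, and 8 bright probes weigh most in the sum.

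Junb was well above background on none of the 3 knockout arrays with LPS. On wild type arrays its relative signal was 8.44, 13.1, 8.63 and 8.97. Knockout signal was at least 302-fold lower, counted against the dimmest signal measurable on each knockout array, and the groups did not overlap. Lyz2, the lysozyme gene that carries the Cre, read 4.09, 3.76 and 5.28 in knockout against 509, 552, 418 and 718 in wild type. Its log2 difference was -6.96 (SE 0.18, adjusted p = 5.17e-12). For each of these genes the two-sided exact permutation p over the arrays was 0.0286, the smallest that 35 relabelings of 3 and 4 arrays can give. Lyz1, the neighbouring near-identical lysozyme gene, was also lower, with a log2 difference of -3.05, and its probe may share signal with Lyz2. Of the 20 genes tested around Junb, 10 on each side, 3 were called and none differed by 2-fold and passed the test. Of the 20 genes around Lyz2, 9 were called, and Lyz1 and Mdm1 (-1.30, adjusted p = 0.000736) differed by over 2-fold. Over all genes tested 30.9% were called.

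After LPS 4225 autosomal genes were called, 30.9% of those tested. Of these 1855 were higher in knockout (13.5% of genes tested) and 2370 lower (17.3%). At least 2-fold differences made up 585 of the higher (4.27%) and 606 of the lower genes (4.42%). At least 4-fold differences were fewer, 66 higher (0.482%) and 109 lower (0.796%). The median log2 difference over all genes was 0.0061, and 5% to 95% of genes spanned -0.99 to 1.13, with a median standard error of 0.18. Groups of arrays did not overlap for 42.1% of genes. Higher genes made up 43.9% of calls. When arrays were scaled to their median instead, 1125 genes were called and 31.6% of them were higher. Without knockout replicate 3, 2771 genes were called.

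The untreated arrays share no array with the LPS contrast, but the same 2 slides carry both. Untreated, 2416 genes were called (17.6%), 1608 higher (11.7%) and 808 lower (5.9%); at least 2-fold differences were 388 of the higher (2.83%) and 202 of the lower genes (1.48%). Of the genes higher with LPS, 739 were also higher untreated, which is 39.8% of the LPS list and 46.0% of the untreated list. Of the genes lower with LPS, 484 were also lower untreated, 20.4% of the LPS list and 59.9% of the untreated list. The response to LPS, the change from untreated to LPS, was tested for a difference between genotypes in the same fit. It was lower in knockout for 983 genes (7.18%) and higher for 405 (2.96%), and by at least 2-fold for 445 (3.25%) and 188 (1.37%). Without knockout replicate 3 the response difference was called for 903 genes, against 1388. Among the 109 genes at least 4-fold lower with LPS, 68 had a lower response and 47 of those were not called untreated. Among the 66 genes at least 4-fold higher with LPS, 33 had a higher response and 18 of those were not called untreated. The response difference contains the LPS contrast itself, so these counts are no independent support for it.

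**Figure D1:**
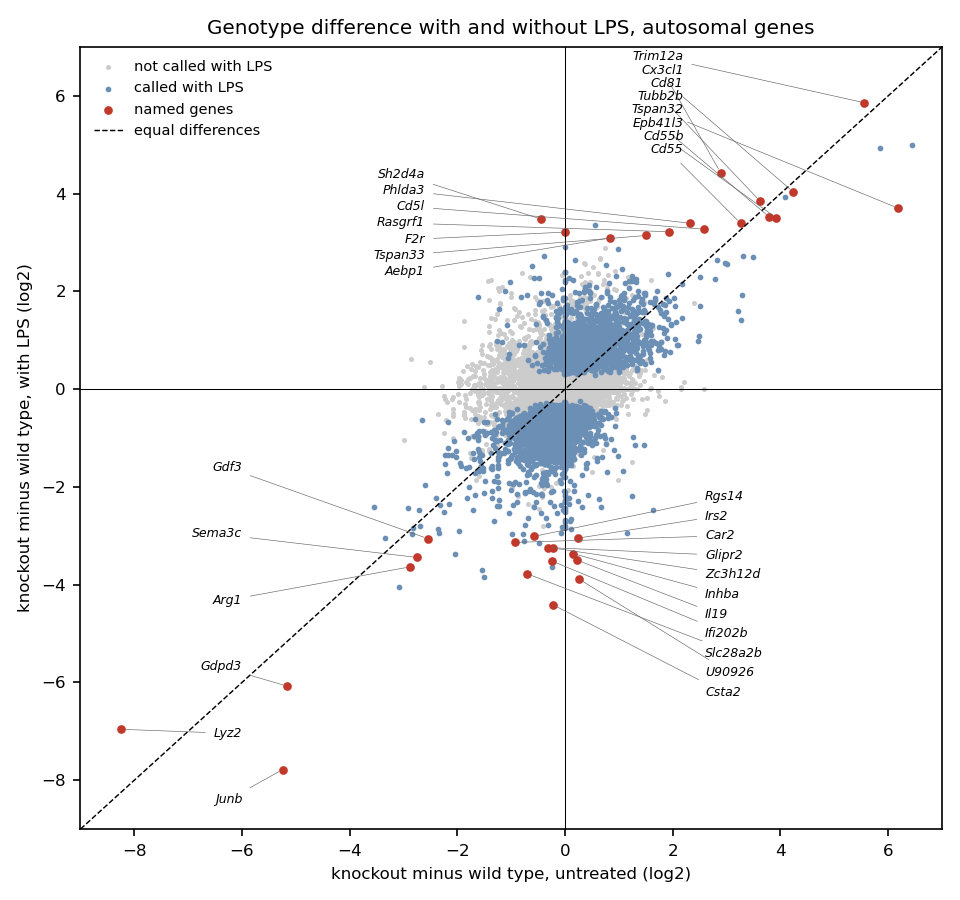
Each point is 1 autosomal gene, with the knockout minus wild type log2 difference without LPS on the horizontal axis and with LPS on the vertical axis. Called genes are blue, the genes of the largest differences with Junb and Lyz2 red, and the dashed line marks equal differences. Gdpd3, Arg1, Trim12a and Cd81 lie near the line, while Csta2, U90926, Il19 and Inhba lie near 0 untreated and between -4.41 and -3.36 with LPS; Junb is drawn at its floor value.

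The 15 largest differences in each direction were taken among genes of mean intensity up to 150000, a limit that leaves out Lyz2, measured on every LPS array and with groups that did not overlap. The lowest of these in knockout relative to wild type was Gdpd3, a lysophospholipase D on chromosome 7. Its relative signal was 0.353, 0.379 and 0.426 in knockout and 26.7, 31.2, 25.0 and 21.8 in wild type. That is a log2 difference of -6.08 (SE 0.15, adjusted p = 4.14e-12). Without LPS Gdpd3 was also lower, by a log2 difference of -5.16 (adjusted p = 1.04e-11). The same held in direction for Arg1, whose enzyme arginase 1 turns arginine into ornithine and urea. Arg1 read 1.07, 1.03 and 2.01 in knockout and 13.0, 24.7, 16.5 and 13.1 in wild type, a log2 difference of -3.64 (SE 0.25, adjusted p = 2.44e-07). Untreated values ran from 0.333 to 0.471 in knockout and from 2.58 to 2.91 in wild type, so Arg1 was lower in knockout in both states and the response difference of -0.75 did not pass the test (adjusted p = 0.195). Sema3c, a secreted semaphorin, and Gdf3, a TGF-beta family ligand, were likewise lower with LPS (log2 differences of -3.44 and -3.06) and untreated (-2.74 and -2.55). A second Gdf3 probe gave -1.82 with LPS.

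A second group differed with LPS and not detectably without it. Inhba, the subunit of activin A, read 1.15, 0.789 and 1.23 in knockout and 12.7, 11.7, 10.9 and 8.00 in wild type, while untreated signals ran only from 0.0436 to 0.0651 and were at the floor on all untreated wild type arrays. The LPS difference was -3.36 (SE 0.19, adjusted p = 3.94e-08). Il19, a cytokine of the interleukin 10 family, read 0.696, 0.969 and 0.654 in knockout against 9.29, 9.74, 8.28 and 7.35 in wild type. Its difference was -3.50 (SE 0.33, adjusted p = 4.03e-06), and a second probe gave -3.98. The untreated ranges of both genes overlapped. Irs2, the adaptor that couples insulin and interleukin 4 receptors to downstream kinases, read 0.748, 0.520 and 0.598 in knockout and 5.62, 5.09, 4.88 and 4.78 in wild type. Its difference was -3.05 (SE 0.22, adjusted p = 3.16e-07), against 0.24 untreated (adjusted p = 0.445).

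Zc3h12d, a ribonuclease of the Regnase family, was close in both genotypes without LPS. Untreated it read from 1.36 to 1.61 in knockout and from 1.61 to 2.15 in wild type. After LPS it read 0.129, 0.125 and 0.142 in knockout and 1.17, 1.52, 1.21 and 1.15 in wild type. Both genotypes lay below their untreated range, the knockout further. The LPS difference was -3.25 (SE 0.13, adjusted p = 7.94e-10) and the response difference -3.03 (SE 0.18, adjusted p = 2.65e-07). U90926, a little characterized transcript, read 5.71, 6.63 and 8.38 in knockout against 105, 121, 88.4 and 91.2 in wild type, and 1 of the 8 untreated arrays was above background. Its LPS difference was -3.88 (SE 0.23, adjusted p = 4.31e-08). Csta2, a stefin protease inhibitor, differed by -4.41 and Ifi202b, a DNA-binding interferon-inducible protein, by -3.52; both have near-identical copies that one probe may not separate. The nucleoside transporter gene Slc28a2b, with a close paralogue, differed by -3.78, and by -2.83 at a second probe. Glipr2 (-3.24), the carbonic anhydrase gene Car2 (-3.14) and Rgs14, a regulator of G protein signalling (-3.01), completed the 15 largest lower genes. Car2 was also called lower untreated (-0.94, adjusted p = 0.000663), with all untreated knockout arrays at the floor.

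**Figure D2:**
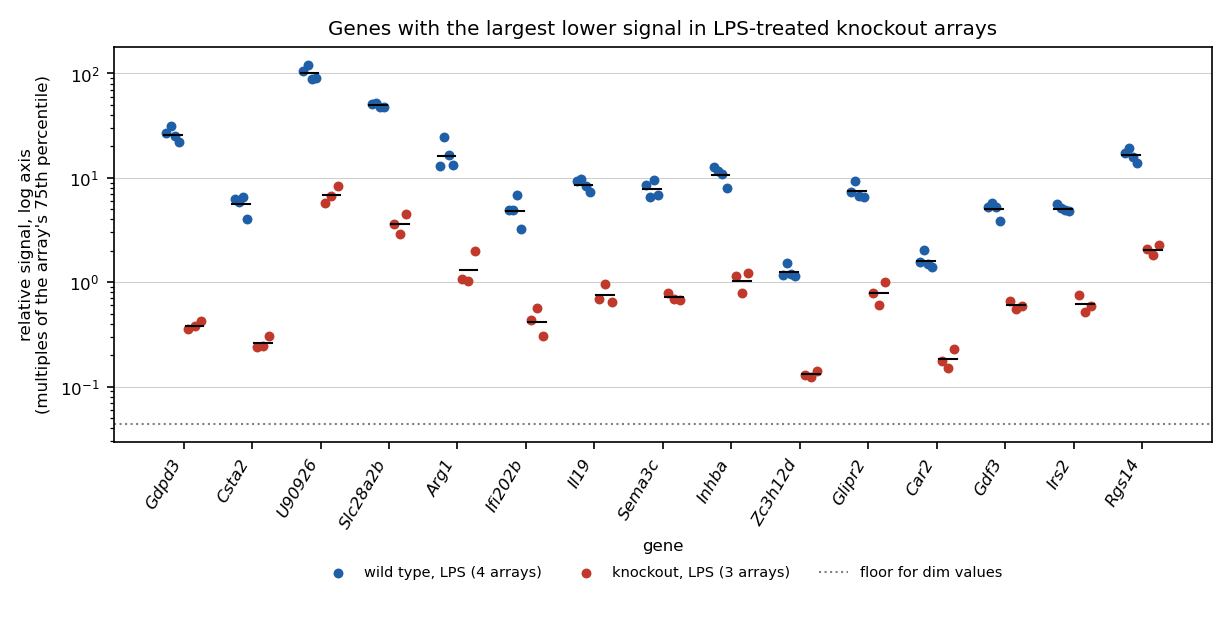
Relative signal (multiples of the array's 75th percentile, log axis) of the 15 genes with the largest lower signal in LPS-treated knockout arrays. Points are arrays, 4 wild type (blue) and 3 knockout (red), bars are means of log2 values, and the dotted line is the floor of 0.0436; genes were chosen for groups that do not overlap, and Gdpd3 shows the widest gap.

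Some genes could only be bounded. In 67 genes no knockout array with LPS was above background while all 4 wild type arrays were. S100a9, a calcium-binding protein of neutrophils and monocytes, was at least 22.6-fold lower in knockout, with 0.711, 1.07, 0.612 and 0.583 in wild type. The 8 neutrophil markers tested, S100a9 and Mmp8 among them, summed to 66.9 to 81.5 in knockout and 126 to 163 in wild type, and their part in the results was not tested. Fewer cells of a type and less RNA per cell cannot be told apart in these bulk samples. The bounds for Hhipl1, Zfp462 and Neo1, a netrin and repulsive guidance receptor, were at least 10.3-fold, 8.94-fold and 7.29-fold lower. The log2 difference of Neo1 was -2.84, and -1.80 with normexp background correction. Untreated, all 4 genes were also called lower, with every knockout array at the floor for S100a9, Hhipl1 and Zfp462.

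The largest higher gene chosen in the same way was Trim12a, a TRIM family gene on chromosome 7 with close paralogues, at 12.8, 10.7 and 13.4 in knockout and 0.207, 0.235, 0.193 and 0.210 in wild type. Its difference was 5.86 (SE 0.23, adjusted p = 6.65e-10) and its untreated difference was 5.56. Cx3cl1, the membrane-bound chemokine fractalkine, read 7.32, 5.74 and 6.81 in knockout against 0.325, 0.290, 0.313 and 0.296 in wild type. Cx3cl1 differed by 4.43 (SE 0.15, adjusted p = 2.07e-10), and its response was also larger in knockout, by 1.54 (SE 0.21, adjusted p = 0.000373). Cd81, a tetraspanin of chromosome 7, read 54.8, 57.7 and 50.7 in knockout and 3.42, 3.36, 3.98 and 2.6 in wild type. Cd81 differed by 4.04 (SE 0.18, adjusted p = 2.34e-09) with LPS and by 4.23 untreated, and the response difference did not pass the test (adjusted p = 0.655).

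F2r, the thrombin receptor PAR1, read 1.95, 1.61 and 1.62 in knockout and 0.213, 0.145, 0.186 and 0.204 in wild type with LPS, and lay at or just above the floor on all untreated arrays (at most 0.0440). Its LPS difference was 3.21 (SE 0.12, adjusted p = 5.43e-10). Sh2d4a, an SH2 domain adaptor, read 3.02, 2.74 and 2.57 in knockout against 0.225, 0.254, 0.263 and 0.255 in wild type, with untreated knockout values of 0.0627 to 0.0763. Its LPS difference was 3.48 (SE 0.46, adjusted p = 8.47e-05), and the untreated difference of -0.44 did not pass (adjusted p = 0.519). Aebp1, a carboxypeptidase-like matrix protein, differed by 3.09 with LPS and by 0.83 untreated (adjusted p = 0.102). In all 3 genes the response to LPS was larger in knockout.

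Cd5l, a secreted macrophage protein of the scavenger receptor family, read 33.2, 25.4 and 24.6 in knockout and 3.11, 2.45, 2.98 and 2.87 in wild type with LPS, a difference of 3.27 (SE 0.21, adjusted p = 1.01e-07). Untreated, Cd5l differed by 2.57. The remaining genes, with their LPS and untreated log2 differences, were the tubulin gene Tubb2b (3.84 and 3.62), the band 4.1 gene Epb41l3 (3.52 and 3.79), Phlda3 (3.39 and 2.32) and Rasgrf1, a RAS exchange factor (3.22 and 1.94). Tspan33, a tetraspanin, differed by 3.14 with LPS and 1.51 untreated. Cd55 and its copy Cd55b, which restrain complement, differed by 3.40 and 3.51 with LPS and by 3.26 and 3.92 untreated. Their probes may share signal, and a second Cd55b probe gave 0.58 with LPS. Tspan32, a tetraspanin gene on the same stretch of chromosome 7 as Cd81, differed by 3.70, with wild type values at or near the floor, and by 1.35 when its 3 probes were averaged. Its response difference was -2.48, so Tspan32 differed more untreated than with LPS. Averaging probes also lowered Cd55b to 2.04 and Rasgrf1 to 1.61, both still called.

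**Figure D3:**
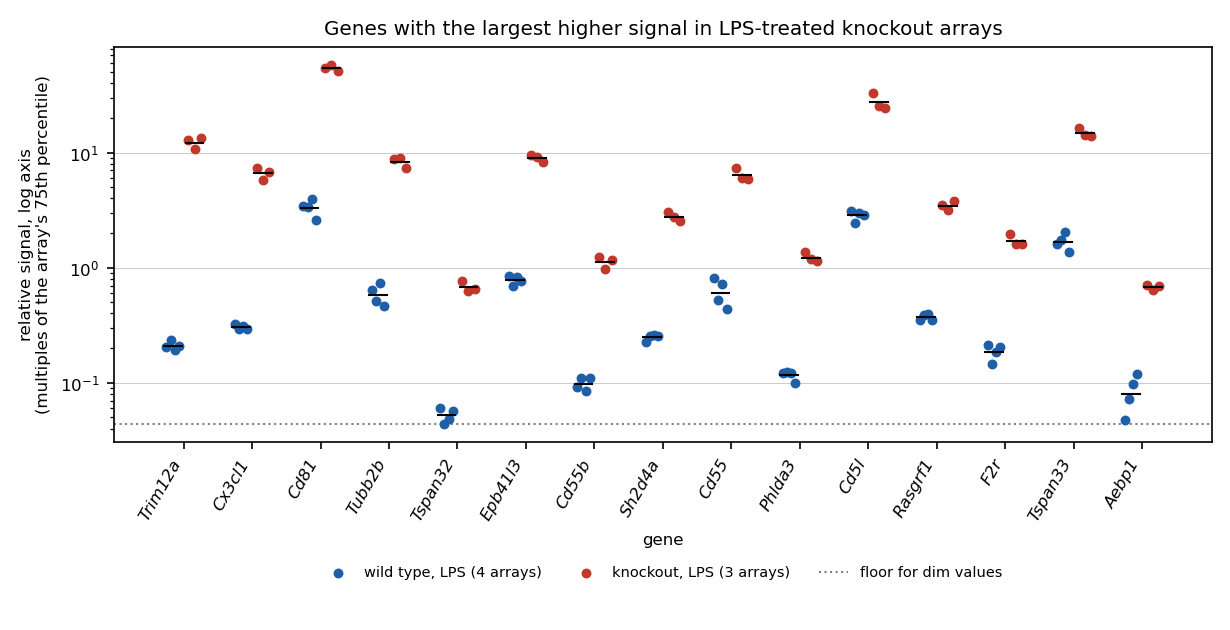
Relative signal (multiples of the array's 75th percentile, log axis) of the 15 genes with the largest higher signal in LPS-treated knockout arrays. Points are arrays, 4 wild type (blue) and 3 knockout (red), bars are means of log2 values, and the dotted line is the floor; wild type values of Tspan32 sit at or just above it, and genes were chosen for groups that do not overlap.

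In 86 genes all 3 knockout arrays with LPS were above background and no wild type array was. The long non-coding gene 5830417I10Rik was at least 78.6-fold higher in knockout, at 2.62, 1.95 and 2.38. Tnfrsf23, a decoy receptor of the TNF family on chromosome 7, was at least 45.6-fold higher, and Tceanc2 at least 22.8-fold; these bounds are for the brightest probe, and with probes averaged the log2 differences were 3.03 and 2.39. Tnfrsf25, the death receptor DR3, was at least 11.1-fold higher and was at the floor on all untreated arrays of both genotypes. Slc15a2, an oligopeptide transporter, was at least 7.32-fold higher (a log2 difference of 2.73, and 1.72 with normexp). Chromosome 7 held 17 of the genes called at 4-fold or more with LPS, 1.42% of its 1197 tested genes, near the 1.28% of all autosomal genes and below chromosome 8 at 1.87%. Of these 14 were also called untreated, where 84 of the 175 such genes on all autosomes were.

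Of 16 AP-1 subunit genes tested 3 were higher and 5 lower, where 13.5% and 17.3% of all genes were. Junb, the deleted gene itself, is among the 5, and 8 genes did not pass. The list's median has no settled sign (0.17, and -0.25 in the deposited values). Jund, the JUN family member of growth-arrested cells, read 170.1, 183 and 158 in knockout against 91.6, 73.0, 92.3 and 68.2 in wild type. Jund was higher by 1.08 (SE 0.21, adjusted p = 0.00181), a call lost under median scaling. Jun, the founding member, read 8.50, 8.29 and 10.1 and 6.91, 8.47, 6.84 and 6.71, overlapping between genotypes, with a difference of 0.31 that did not pass (adjusted p = 0.222). Fos (0.19), Fosl1 (0.15) and Fosb (0.23) overlapped between the groups and did not pass either. Fosl2 differed by -0.31 (adjusted p = 0.114), with all knockout values, 56.4, 57.2 and 59.0, under all wild type values, 72.1, 67.3, 76.1 and 69.4. Atf3, a stress-induced repressor, was lower, at 21.0, 18.6 and 25.5 against 71.0, 81.0, 60.5 and 76.0. Its difference was -1.74 (SE 0.13, adjusted p = 6.99e-07), and the untreated difference was -0.33 (adjusted p = 0.0876). Batf was higher by 0.83 with LPS and 1.27 untreated.

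Cytokine genes that were called were mostly lower. Of 21 tested pro-inflammatory cytokine genes 12 were lower and 1 higher, where 17.3% and 13.5% of all genes were, and the list's median was -0.69. These shares of all genes are the background for every LPS count of a list below, and under median scaling all 21 lists had fewer called members. Osm, oncostatin M of the interleukin 6 family, read 2.32, 1.89 and 3.20 in knockout against 15.3, 23.3, 15.5 and 17.4 in wild type. Its difference was -2.87 (SE 0.21, adjusted p = 5.06e-07). Il23a, the subunit particular to interleukin 23, read 0.335, 0.344 and 0.582 against 2.35, 2.70, 2.36 and 1.94, a difference of -2.51. Il33, an alarmin of the interleukin 1 family, differed by -2.72. Lif, another interleukin 6 family cytokine, differed by -3.84, with 1 of 3 knockout arrays above background. The groups did not overlap in these 4 genes, picked as the largest called differences of the list, nor in 42.1% of all genes. The single higher member, Il12a, overlapped between the groups. Il6 and Il1b did not pass, with differences of 0.15 and 0.11 and adjusted p of 0.82 and 0.77; their signals were among the 291 genes of mean intensity over 150000, where compression of the signal was not tested.

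Genes that restrain inflammation showed 9 lower and 0 higher members of 15 tested, with a median of -0.54; 6 did not pass. Il10, the main anti-inflammatory cytokine, read 8.12, 8.58 and 8.89 in knockout against 45.1, 58.7, 45.8 and 40.4 in wild type. Its difference was -2.46 (SE 0.14, adjusted p = 2.27e-08), and -1.53 in the deposited values. Untreated, Il10 was higher in knockout, 0.578 to 0.720 against 0.185 to 0.235, so the response difference reached -4.10 (SE 0.18, adjusted p = 3.95e-08). Il1rn, the interleukin 1 receptor antagonist, differed by -1.68 over the 2 knockout arrays with a usable spot, and by -1.52 untreated. Dusp1, a phosphatase that switches off p38 and JNK, differed by -1.16.

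Among 23 chemokine genes 6 were higher, 6 lower and 11 did not pass. The higher ones included Ccl17 and Ccl22, both ligands of CCR4 and marks of alternative activation. Ccl17 read 2.35, 2.44 and 3.09 in knockout and 0.611, 0.687, 0.448 and 0.552 in wild type, a difference of 2.2 (SE 0.13, adjusted p = 7.02e-08). Ccl22 read 0.355, 0.494 and 0.600 and 0.0699, 0.0954, 0.0998 and 0.0998, a difference of 2.39 (SE 0.16, adjusted p = 1.98e-07). Both were at the floor on all untreated arrays. Cxcl13, a B cell attractant, read 3.92, 3.42 and 3.40 in knockout and 0.564, 0.638, 0.450 and 0.363 in wild type and differed by 2.86 (SE 0.19, adjusted p = 1.98e-07). All knockout values of these 3 genes, picked among the largest called differences of the list, lay above all wild type values. Over all genes 42.1% had groups that did not overlap. The lower chemokines were Ccl7, Ccl12, Ccl24, Cxcl1, Cxcl3 and Cxcl9.

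Untreated, 26 of 38 interferon-stimulated genes were lower in knockout, where 5.9% of all genes were. With LPS 8 were lower, a share near the 17.3% of all genes, and 0 higher, with a median of -0.22; quantile scaling and averaged probes gave 1 higher each and normexp 2. The response to LPS was larger in knockout for 10 of the 38 and smaller for 0 (2.96% and 7.18% of all genes). Irf7, a driver of type I interferon production, read 26.8, 22.4 and 32.7 in knockout against 81.3, 115, 80.9 and 83.1 in wild type with LPS. It differed by -1.72 with LPS and -1.68 untreated. Oas3, which senses double-stranded RNA, differed by -1.29 and -1.61, and the GTPase genes Tgtp1 and Gbp7 by -1.62 and -1.21 with LPS. Gbp7 had no usable spot on wild type replicate 4, and Oas3 and Gbp7 were not called in the deposited values (Gbp7 at -0.58). Of this list 18 genes exceeded a mean intensity of 150000.

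Markers of polarization were called in both directions. Of 25 classical activation genes 4 were higher and 9 lower. Serpinb2, a plasminogen activator inhibitor, read 13.8, 18.1 and 17.1 in knockout against 131, 112, 121 and 122 in wild type, a difference of -2.90 (SE 0.53, adjusted p = 0.00105). Marco, a scavenger receptor, was higher, 109, 94.1 and 81.2 against 26.6, 30.3, 24.9 and 23.0, a difference of 1.85 (SE 0.15, adjusted p = 7.86e-07). Cd38, an NAD hydrolase, was higher by 1.06 with LPS and 1.5 untreated. Of 22 alternative activation genes 7 were higher and 7 lower. Besides Arg1, Ccl17 and Ccl22, Egr2 differed by 1.65, a call lost in the deposited values (0.82). Egr2, a zinc-finger factor of the alternative programme, read 34.0, 34.2 and 28.7 in knockout and 11.7, 9.28, 12.6 and 8.15 in wild type with LPS. Untreated it was lower in knockout, 0.979 to 1.87 against 2.10 to 4.59, so its order turned with LPS and the response difference was 2.88 (SE 0.36, adjusted p = 0.00024).

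Of 20 NF-kB subunit and feedback genes 1 was higher and 3 lower, and of 16 Toll-like receptor and adaptor genes 2 were higher and 5 lower, against 13.5% and 17.3% of all genes. Under median scaling 0 Toll-like receptor genes were called in either direction. Nfkbiz, the nuclear inhibitor-like cofactor, differed by -0.85, Nfkb2 by -0.64, Birc3 by -0.55 and Vcam1 by 0.57, with 0.20 at a second Vcam1 probe. Birc3 lost its call under quantile and median scaling, with normexp, with the LPS arrays alone, and without knockout replicate 3 (-0.33) or wild type replicate 2 (-0.47). Tirap, an adaptor of TLR4, differed by -0.69, and Tlr1 higher by 0.68. Tlr3 (-0.80) and Ticam2 (0.70) passed at adjusted p of 0.0272 and 0.0477, and with the replicate number as a block their adjusted p was 0.055 and 0.075. Tlr4 itself did not pass (-0.01, adjusted p = 0.98) and its values overlapped.

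Regulators of mRNA decay gave 4 lower and 0 higher genes of 15 tested. Besides Zc3h12d, Zfp36l1, a protein that binds AU-rich elements, read 2.85, 3.37 and 3.36 in knockout against 26.5, 24.8, 25.9 and 20.7 in wild type. It differed by -2.94 (SE 0.15, adjusted p = 8.56e-09) with LPS. Untreated it was higher in knockout, 31.0 to 40.9 against 13.6 to 19.4, and the response difference was -4.09 (SE 0.20, adjusted p = 6.28e-08). Zfp36l2 differed by -0.69 and Khsrp by -0.60.

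Among 35 zinc-finger and lineage transcription factor genes 7 were higher and 7 lower. Irf8, a monocyte lineage factor, read 6.89, 4.88 and 7.52 in knockout against 33.2, 38.8, 29.9 and 33.0 in wild type. Its difference was -2.41 (SE 0.15, adjusted p = 7.34e-08), while the untreated ranges, 27.2 to 32.3 and 21.7 to 27.2, overlapped. Gfi1, a transcriptional repressor, was higher with LPS, 51.2, 38.2 and 47.8 against 14.5, 11.2, 13.5 and 10.4. It differed by 1.89 (SE 0.21, adjusted p = 1.58e-05) with LPS and by -1.61 untreated, so that its response difference was 3.50 (SE 0.28, adjusted p = 4.67e-06). Hey1, a Notch target, was higher by 2.22 and Spib, a relative of PU.1, by 1.89; with normexp the values were 1.30 and 0.95. The myeloid factor genes Spi1, Cebpa and Irf5 were among the lower members.

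Growth control genes gave 9 higher and 3 lower members of 28 tested, with a median of 0.38; untreated 11 were higher and 0 lower. Over all genes 13.5% were higher and 17.3% lower with LPS, and 11.7% higher and 5.9% lower untreated. The balance was lost under median scaling (1 higher and 2 lower) and in the deposited values (3 and 2 of 21). Ccnd2, a G1 cyclin, read 7.20, 5.85 and 9.02 in knockout against 33.5, 37.8, 29.8 and 31.7 in wild type with LPS. It differed by -2.19 (SE 0.15, adjusted p = 2.07e-07) with LPS and by 1.25 untreated (adjusted p = 2.75e-05). Cdkn2a, which encodes the p16 and p19 tumour suppressors, was higher in both states, by 2.58 and 2.97, with 0.97 at a second probe with LPS. Mcm2, a replication helicase subunit, read 0.169, 0.158 and 0.144 in knockout with LPS against 0.0826, 0.0680, 0.0818 and 0.0558 in wild type, where no array was well above background. Its difference was 1.14, and 0.52 with normexp. Ccne1, the S phase cyclin E1, was higher by 1.10, and by 0.62 at a second probe.

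Antigen presentation genes were lower in 16 of 25 and higher in 3, with a median of -0.55; untreated 10 were lower. Over all genes 17.3% were lower and 13.5% higher with LPS, and 5.9% were lower untreated. Median scaling gave 6 lower and 1 higher, and the deposited values 4 lower and 2 higher of 19. Cd74, the invariant chain of MHC class II, read 16.6, 15.4 and 20.7 in knockout against 58.2, 83.7, 52.8 and 64.1 in wild type. Its difference was -1.87 (SE 0.22, adjusted p = 3.1e-05), and -1.49 untreated. H2-Aa and H2-DMa, also of class II, differed by -1.43 and -1.29. Icosl, a ligand that co-stimulates T cells, was higher, 103, 105 and 80.6 against 44.5, 32.6, 44.1 and 33.4, a difference of 1.32.

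Feedback phosphatases of the MAP kinases and SOCS genes gave 9 lower and 3 higher of 21. Of the 21, 9 had a lower response in knockout and 2 a higher one, where 7.18% and 2.96% of all genes did. Dusp5, a nuclear ERK phosphatase, read 0.284, 0.224 and 0.419 in knockout against 1.33, 1.93, 1.47 and 1.52 in wild type, a difference of -2.38 (SE 0.18, adjusted p = 5.96e-07). Dusp6, its cytoplasmic counterpart, read 5.56, 5.54 and 6.05 against 23.8, 19.9, 22.5 and 18.7, a difference of -1.89 (SE 0.22, adjusted p = 2.41e-05). Untreated, neither differed detectably, with differences of -0.071 and 0.083. Dusp10 differed by -2.38 (-1.48 in the deposited values). Dusp14 was at least 3.74-fold lower, since 0 of 3 knockout arrays were above background for Dusp14 (a log2 difference of -1.81, and -1.01 with normexp).

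Among 23 activin, TGF-beta and growth factor genes 8 were higher and 5 lower. Edn1, the peptide endothelin 1, read 3.32, 3.61 and 3.90 in knockout against 20.7, 19.4, 19.99 and 17.9 in wild type and was at the floor on all untreated arrays. Its difference was -2.43 (SE 0.09, adjusted p = 2.76e-10). Hbegf, an EGF receptor ligand, differed by -1.93. Where both untreated groups lie at the floor, as for Edn1, the response difference equals the LPS difference and adds nothing to it.

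Matrix, protease and adhesion genes gave 15 lower and 7 higher of 32, with a median of -0.31. Mmp3, stromelysin 1, read 0.231, 0.293 and 0.326 in knockout against 1.73, 2.35, 2.28 and 1.76 in wild type, a difference of -2.84 (SE 0.13, adjusted p = 4.82e-09). Mmp10, stromelysin 2, read 0.177, 0.149 and 0.190 against 1.00, 1.5, 1.08 and 0.875, a difference of -2.67 (SE 0.15, adjusted p = 2.94e-08). Both were at the floor untreated. Thbs1, thrombospondin 1, differed by -1.67 with LPS and by 1.08 untreated. Mmp8, a neutrophil collagenase, differed by -2.13, a call lost in the deposited values (-0.68). F3, the tissue factor that starts coagulation, read 19.8, 24.5 and 20.6 in knockout against 90.0, 88.4, 92.5 and 95.2 in wild type, a difference of -2.09 (SE 0.14, adjusted p = 2.44e-07).

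AP-1 dimers of JUN and FOS proteins bind the sequence TGACTCA, so the RefSeq promoter windows (250 bases before to 50 after each start, GRCm38.p6) were searched for it on both strands. Of the tested genes, 10942 had a window and 561 of them, 5.13%, held a match. A gene with several starts has several windows and was counted as a match if any of them held one. Among genes at least 4-fold lower in knockout 13 of the 82 with a window did (15.9%), and among genes at least 4-fold higher 2 of 53 (3.77%). Of the genes at least 4-fold lower that also had a lower response, 12 of the 49 with a window held a match (24.5%). Among all genes called lower the share was 5.72% and among all called higher 5.92%, both close to that of the tested genes. Of the 15 largest lower genes 11 had a window, and none of these held a match. The other motifs, searched on both strands, showed 0 of 82 and 3 of 53 for TGACGTCA (3.36% of tested genes) and 4 of 82 and 2 of 53 for GAAA repeated after a gap of any 2 bases, a core of the interferon-stimulated response element (4.02%); none of the motifs contains another. In all, 3 motifs were looked for in 9 sets, of which the measured differences themselves define 7, so the shares are a description and no test. A match is not a bound site.

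The stretches upstream of 5 genes with a match are shown, chosen after values and matches were seen: Mmp3, Mmp10 and F3 from the lists above, Slfn4, an interferon-inducible Schlafen gene (log2 difference -2.39, SE 0.12, adjusted p = 1.21e-08), and Aqp9, a glycerol and water channel (-2.16, SE 0.39, adjusted p = 0.00103). The strand printed is that of the gene, 5′ to 3′, each ends at the last base before the RefSeq start, and capitals mark TGACTCA or its reverse complement TGAGTCA. The positions are chr9:7445702-7445821 (plus strand) for Mmp3, chr9:7502222-7502341 (plus) for Mmp10, chr11:83175066-83175185 (plus) for Slfn4, chr9:71162634-71162753 (minus) for Aqp9 and chr3:121723377-121723536 (plus) for F3. The match begins 46 bases before the start in Mmp3, 63 in Mmp10, 34 in Slfn4, 24 in Aqp9 and 135 in F3.
Mmp3: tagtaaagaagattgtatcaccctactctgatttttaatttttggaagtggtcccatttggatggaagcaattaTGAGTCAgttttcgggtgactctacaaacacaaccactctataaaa
Mmp10: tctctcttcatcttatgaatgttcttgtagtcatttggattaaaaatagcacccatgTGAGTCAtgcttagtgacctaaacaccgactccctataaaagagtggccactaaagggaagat
Slfn4: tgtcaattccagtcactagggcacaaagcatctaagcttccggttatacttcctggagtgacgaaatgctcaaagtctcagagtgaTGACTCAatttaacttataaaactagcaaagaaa
Aqp9: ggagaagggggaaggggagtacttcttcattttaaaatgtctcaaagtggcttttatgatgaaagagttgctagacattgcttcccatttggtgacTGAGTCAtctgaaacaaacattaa
F3: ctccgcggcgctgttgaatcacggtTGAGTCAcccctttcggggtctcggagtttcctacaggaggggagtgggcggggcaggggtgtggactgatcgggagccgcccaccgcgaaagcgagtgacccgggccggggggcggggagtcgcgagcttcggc

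Receptor genes gave 12 lower and 9 higher of 32. Fcgr2b, the inhibitory receptor for immunoglobulin G, read 28.4, 24.5 and 29.7 in knockout against 156, 157, 132 and 145 in wild type. Its difference was -2.42 (SE 0.15, adjusted p = 1.02e-07) with LPS and -2.92 untreated, and -1.52 with LPS in the deposited values. The other Fc gamma receptor genes on the list, Fcgr1, Fcgr3 and Fcgr4, were also called lower. Trem1, an activating receptor that amplifies inflammation, differed by -1.95.

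Of 17 prostaglandin and leukotriene genes 5 were lower and 2 higher. Ptger2, a prostaglandin E2 receptor, differed by -1.08, and Pla2g4a, the cytosolic phospholipase A2, by -0.96, with Ptges2 (-0.91) and Alox5ap (-0.84) next. Of 24 sterol and lipid genes 4 were lower and 3 higher, with Scd1, a fatty acid desaturase, higher by 0.89 and Lpl, lipoprotein lipase, by 0.91. Dhcr7, a cholesterol synthesis enzyme, was at least 2.50-fold lower, with 0 of 3 knockout arrays above background (a log2 difference of -1.10, and -0.61 with normexp). Ch25h, which makes 25-hydroxycholesterol, differed by -0.99, but by 1.01, not called, in the deposited values. Of 18 glycolysis and itaconate genes 3 were lower, Pfkp (-0.93), Tpi1 (-0.56) and Pdk1 (-0.39), and 0 higher. A second Pfkp probe gave 0.0022, and averaging its probes gave -0.47. Of 21 stress and nutrient genes 4 were lower and 3 higher. Ddit4, an inhibitor of mTOR complex 1, read 14.4, 13.6 and 13.3 in knockout against 69.3, 73.7, 63.6 and 51.7 in wild type, a difference of -2.22 (SE 0.17, adjusted p = 4.9e-07). Slc7a11, the cystine transporter, differed by -1.6 and its partner Slc3a2 by -0.62, while Srxn1, an antioxidant reductase, was higher by 0.78.

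**Figure D4:**
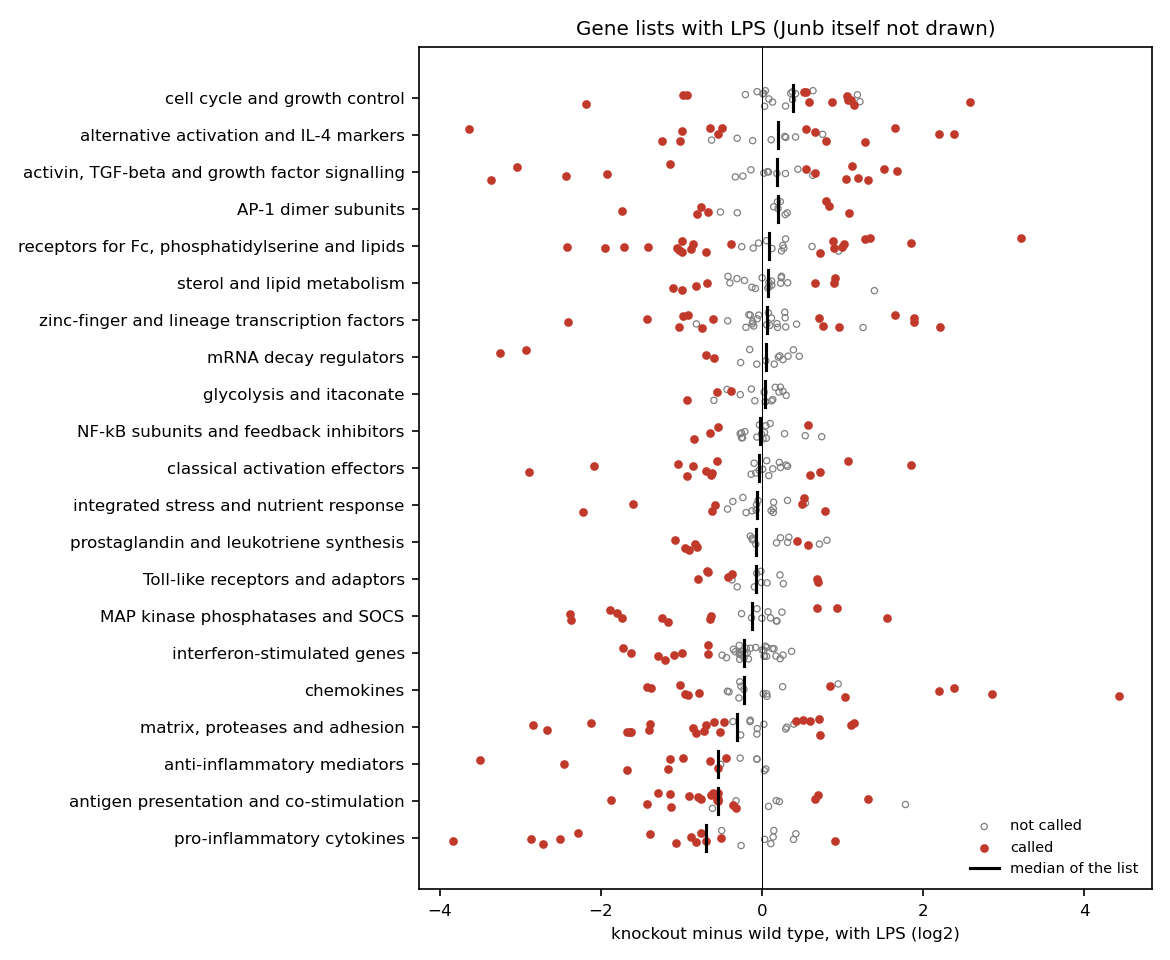
Log2 difference, knockout minus wild type with LPS, of each tested member of the 21 gene lists. Filled points passed the test, open points did not, and the vertical bar is the median of the list; pro-inflammatory cytokines (-0.69), antigen presentation (-0.55) and anti-inflammatory mediators (-0.54) have the lowest medians and cell cycle genes the highest. Junb is not drawn, and the AP-1 median is therefore taken without it.

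Over 8 alternative settings the median kept its sign for 8 of the 21 lists: pro-inflammatory cytokines, anti-inflammatory mediators, interferon-stimulated genes, alternative activation, cell cycle, antigen presentation, activin and growth factors, and matrix. The other 13 medians turned under at least 1 setting and have no direction here. Within the deposited values the pro-inflammatory median was -0.03 with 7 of 17 genes lower.

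Markers of other cell types also differed between the groups, and their part in the results was not tested. Of 8 neutrophil markers tested 4 were lower (S100a8, S100a9, Camp and Mmp8) and 1 higher (Prtn3). Ly6g, Mpo, Ngp, Retnlg and Cxcr2 were not tested here. Of 8 fibroblast and stromal markers 2 were higher (Pdgfrb and Cxcl12) and 2 lower (Dcn and Lum), with sums of 18.0 to 20.5 and 6.84 to 10.6. B cell markers summed to 144 to 164 in knockout and 76.7 to 108 in wild type over 4 genes, of which Cd79b and Blnk were higher. T and NK cell markers summed to 6.74 to 8.68 and 15.2 to 21.7 over 5 genes, with Il7r lower. Dendritic cell sums, 249 to 307 and 275 to 497, overlapped. Of 4 erythroid markers 0 passed, with sums of 10.7 to 11.6 and 9.09 to 10.3, and of 3 mast cell markers 1 did, Cma1, with overlapping sums of 0.349 to 0.409 and 0.253 to 0.541.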

How the data were processed

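Single-colour Agilent mouse arrays measured RNA of 15 samples. The deposited scanner files hold the processed intensity of each spot, made by the authors with Feature Extraction 10.7.3.1 on a design annotated to mm9, per the file headers. Each array was divided by its 75th percentile (482 to 1063 in the LPS arrays), raised to a common floor of 0.0436 and put on the log2 scale. Probes were kept (32522) where 3 or more arrays of some group read well above background, 18345 of them got a mouse symbol through their RefSeq accession, and the brightest probe stood for a gene. Outlier spots were left out (0.325% of values).

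All 4 groups were fitted together with limma 3.58.1 in R 4.3.3, and p-values were adjusted by Benjamini-Hochberg over all genes; the script was tested on simulated data. The deposited value table served as an alternative. Its column medians were 6.25 to 6.27, each of its 15 columns correlated best with its own array (0.913 or more) and its slope on log2 signal was 0.838 to 1.10, so it holds log2 values in the same direction, while how the authors normalized and centred it is not given in the sources used here.

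Named genes were the 15 largest differences in each direction (well above background on all LPS arrays, no overlap, probes of one sign, intensity up to 150000), the 5 largest bounds in each direction, the 4 largest called members of each list, and the JUN and FOS family with Lyz2; members described as not differing were added. Members and lists were chosen with earlier results of these data known. Deviations of LPS arrays of one replicate number correlated at 0.447, 0.250 and 0.138, and those of different number at -0.563 to 0.427. Some pairs of different number thus correlated as highly, and the labels do not say what a number marks. The number was also fitted as a block. Alternatives covered scaling, background correction, floor, filter, probe choice, array weights, samples in the fit and each left-out replicate.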

Additional observations from a re-analysis of the deposited data

Results flagged for a closer look

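The response to LPS differed between the genotypes for 59 of the 118 named genes, by limma's interaction test at an adjusted p under 0.05. Over all genes 10.1% differed, and most named genes were picked for their LPS difference, which the response difference contains. Values are knockout response minus wild type response in log2 units. The lower responses of the largest size were those of Csta2 (-4.18), U90926 (-4.14), Il10 (-4.10), Zfp36l1 (-4.09), Il19 (-3.73), Inhba (-3.51), Ccnd2 (-3.44), Irs2 (-3.29), Ifi202b (-3.28), Slc28a2b (-3.08), Zc3h12d (-3.03) and Osm (-2.98). Next came Glipr2 (-2.92), Thbs1 (-2.76), Irf8 (-2.72), Tspan32 (-2.48), Rgs14 (-2.43), Dusp5 (-2.30), Ddit4 (-2.29), Car2 (-2.2), Dusp10 (-2.18) and Trem1 (-2.11). Smaller lower responses were found for Dusp6 (-1.97), F3 (-1.87), Hbegf (-1.86), Atf3 (-1.41) and Pla2g4a (-1.36). The same held for Ptger2 (-1.20), Zfp36l2 (-0.93), Gdpd3 (-0.91) and Dusp1 (-0.75). The response was higher in knockout for Vcam1 (0.84), Icosl (0.95), Hey1 (0.98), Phlda3 (1.07), Lyz2 (1.28), Rasgrf1 (1.28), Cx3cl1 (1.54) and Tspan33 (1.64). It was also higher for Cxcl13 (1.88), Aebp1 (2.26), Spib (2.72), Egr2 (2.88), F2r (3.21), Gfi1 (3.50) and Sh2d4a (3.92). Where all untreated arrays lay at the floor, the value repeats the LPS difference: Mmp3 (-2.84), Il33 (-2.72), Mmp10 (-2.67), Il23a (-2.51), Edn1 (-2.43), Dusp14 (-1.81), Ccl17 (2.2), Ccl22 (2.39) and Tnfrsf25 (2.90). For Junb (-2.54), with the knockout not above background in either state, and for 5830417I10Rik (-1.51), Tnfrsf23 (-0.92) and Slc15a2 (-0.58), with the wild type not above background in either state, the value is the change of the other genotype against the floor and no measured difference of responses. Most untreated arrays were also at the floor for F2r, Dusp5, Hbegf, U90926, Inhba and Ifi202b, as were all untreated knockout arrays for Car2, so the size of these values depends on it. The same holds for Csta2, whose untreated values, 0.0436 to 0.0606, lay at or just above the floor. Tspan32 had no usable spot on untreated knockout replicate 3. Its wild type values with LPS lay at or near the floor, so the size of its value depends on the floor too.

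In 9 of the 118 named genes 1 wild type array with LPS stood apart from the other 3, by its gap to the nearest array as a share of the group's range; chance gives about 1 such case in 20 groups. Replicate 2 was the highest for Irf7 (115 against 80.9 to 83.1, share 0.924), Nfkbiz (12.0 against 9.31 to 9.55, share 0.901), Jun (8.47 against 6.71 to 6.91, share 0.875) and Junb (13.1 against 8.44 to 8.97, share 0.860). Replicate 4 was the lowest for Phlda3 (0.1 against 0.122 to 0.124, share 0.890), Hhipl1 (0.214 against 0.379 to 0.409, share 0.884) and Zfp36l2 (26.5 against 30.7 to 31.5, share 0.850). Replicate 1 was the lowest for Ccl22 (0.0699 against 0.0954 to 0.0998, share 0.873). For Slc15a2 replicate 1 alone was above the floor, at 0.0486 (share 1), although no wild type array was well above background.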

How the results depend on the processing

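With LPS, 1125 genes were called under median scaling and 2493 in the deposited values, against 4225; leaving out 1 replicate gave 2771 to 4266. Untreated, against 2416, median scaling gave 645, the deposited values 1114, array weights 4987 and leaving out 1 replicate 2192 to 2669. For the response difference, against 1388, the counts were 127, 514 and 4360 in the same order, 903 to 1765 with 1 replicate left out, and 2172 without the 3 arrays of widest spread, a setting chosen after seeing the data. With the replicate number as a block the counts were 3859, 2121 and 1085, and of the named genes Tlr3 and Ticam2 lost their calls; no other named call changed. Of the 118 named genes 85 kept direction and call in every setting, and median scaling ended 23 calls. The sign turned for Ch25h in the deposited values (1.01), for Fosb there (-0.32) and without knockout replicate 2 (-0.54, the range with 1 replicate left out reaching 0.77), and for Fosl1 without knockout replicate 4 (-0.025, reaching 0.29); the cause was not tested. Values that moved by over 1.5 times included Neo1 (-1.80), Hey1 (1.30), Spib (0.95) and Slc15a2 (1.72) with normexp background correction. Tnfrsf23 (3.03) and Tceanc2 (2.39) did so with probes averaged. The list is not complete, and other such moves are given above with their genes, among them Mcm2, Tspan32, Il10 and Egr2. Signals near the floor limit the size of fold changes, and the number of arrays limits precision.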
